A study of Mus musculus with 6 samples.

Results

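The Sprouty and Spred genes of the mouse, Spry1 to Spry4 and Spred1 to Spred3, were followed in back epidermis with and without Spry1. The 7 members were taken by gene name from a table of 54532 genes, and each name matched 1 row. Of the 7, 4 had a mean of at least 1 FPKM (fragments per kilobase of gene, scaled for library depth) over the 6 samples and entered the test across 12629 genes. The remaining 3, Spry3, Spry4 and Spred3, lay under that level and are described from their values and their reads.

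Sprouty and Spred proteins are feedback inhibitors of receptor tyrosine kinase signalling. Growth factor receptors such as EGFR and the FGF receptors activate Ras, which drives the kinases Raf, MEK and ERK, and ERK in turn induces genes that dampen the signal. Sprouty proteins share a cysteine-rich region at their C-terminus and act at the level of the adaptor Grb2, the ubiquitin ligase Cbl and Raf. Spred proteins carry a related region behind an EVH1 domain and bring neurofibromin, the Ras GTPase-activating protein encoded by Nf1, to the membrane. In epidermis this pathway governs keratinocyte growth and differentiation.

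There were 3 control and 3 knockout samples. All of the animals had floxed alleles of Spry1 and were given tamoxifen orally, 0.1 mg per g of body weight, 4 times a week for 4 weeks. Knockout animals also carried K14-Cre-ERT2, a tamoxifen-activated Cre recombinase driven by the keratin 14 promoter. This promoter works in basal keratinocytes and not in the melanocytes, T cells, Langerhans cells or dermal cells that an epidermal sample can hold. Control animals lacked Cre, and Cre without floxed Spry1 was not among the groups, so Cre activity and loss of Spry1 cannot be told apart. Age, sex and strain are not given. Nothing in the labels says that the samples came from separate animals. All p-values therefore reflect the spread among these 6 samples, part of which may be technical.

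Reads recovered from the FPKM values amounted to 18383323 to 21024715 per sample. On the log2 scale, samples of a genotype correlated at 0.962 to 0.986 over the tested genes and samples of different genotypes at 0.838 to 0.863. Control replicate 3 stood apart from the other control samples on the second principal component. Knockout replicate 2 had 1390 reads of the Y-linked gene Eif2s3y, where the other knockout samples had 17 and 3 and the controls had 0. Sex may thus differ between samples, and its part in the values was not tested. The keratinocyte markers Krt5, Krt14, Krt1, Krt10 and Trp63 summed to 11324 to 13736 FPKM in the controls and 21477 to 27027 FPKM in the knockouts, so markers of the labelled tissue were abundant in both. Krt5, Krt14 and Krt1 were higher in the knockouts (log2 fold changes of 0.80, 2.04 and 1.94), while Krt10 and Trp63 were lower (-0.92 and -0.37; limma adjusted p of 0.0173 and 0.0491). The calls of Krt5, Krt10 and Trp63 were lost in 3, 2 and 7 of 14 alternatives, and the replicate block was among these for all 3 (limma adjusted p of 0.0697, 0.0503 and 0.115).

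For the members that were not targeted and passed the test, the sequence upstream of the RefSeq transcription start is shown first, because these genes moved in different directions. Of the 7 members, 5 had a promoter in the RefSeq table (GRCm38.p6). The 250 bases before the start were searched on both strands for CGGAAG, which ETS factors bind, and for TGANTCA, the AP-1 site. Other sequences that these factors bind were not searched for. Both factor families act below ERK. The 2 motifs do not overlap here. Matches are in capitals, and each sequence runs 5′ to 3′ on the gene's strand, ending at the RefSeq start or, for Spred2, where the annotated transcript begins.
Spry2, chr14:105896820-105897069, minus strand: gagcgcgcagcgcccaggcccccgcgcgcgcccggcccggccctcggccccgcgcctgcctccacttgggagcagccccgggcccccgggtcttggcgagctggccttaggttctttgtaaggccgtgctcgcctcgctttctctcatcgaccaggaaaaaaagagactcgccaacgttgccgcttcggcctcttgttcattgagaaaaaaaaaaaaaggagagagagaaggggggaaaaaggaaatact
Spred1, chr2:117120821-117121070, plus strand: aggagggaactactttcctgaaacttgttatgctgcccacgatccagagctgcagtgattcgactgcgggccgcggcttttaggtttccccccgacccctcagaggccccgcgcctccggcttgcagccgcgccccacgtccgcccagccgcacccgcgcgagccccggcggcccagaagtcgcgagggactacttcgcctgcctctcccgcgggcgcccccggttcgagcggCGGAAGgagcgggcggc
Spred2, chr11:19924192-19924374, plus strand: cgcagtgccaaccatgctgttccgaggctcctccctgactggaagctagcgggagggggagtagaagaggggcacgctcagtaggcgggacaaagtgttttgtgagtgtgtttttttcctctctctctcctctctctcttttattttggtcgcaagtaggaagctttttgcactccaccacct
Spred1 held 1 CGGAAG match, which began 17 bases before the start. Spred2 held 1 as well, 43 bases before its RefSeq start and beyond the stretch printed. The windows of Spry1 and Spry2 held none, and TGANTCA was found in none of the 5. Among 32851 promoters of that length, 13.6% held CGGAAG and 6.75% held TGANTCA. Spred1, which rose, and Spred2, which fell, thus both held CGGAAG, while Spry2, which fell, did not.

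Spry1, the deleted gene, was nearly lost from the knockout samples. Sprouty1 is encoded at chr3:37639947-37644598 (GRCm38, plus strand), in 2 exon blocks with 2906 exonic bases. Spry1 read 25.8, 28.2 and 34.4 FPKM in control replicates 1, 2 and 3, from 1364, 1496 and 1947 reads. In knockout replicates 1, 2 and 3 it read 1.06, 1.49 and 1.28 FPKM, from 62, 75 and 61 reads. Every knockout sample lay far below every control sample, and the 3 knockout samples differed little. The knockout mean was 4.33% of the control mean. The log2 fold change was -3.74 ± 0.13 (SE; 95% interval -4.04 to -3.43; limma with Benjamini-Hochberg adjustment over all tested genes, adjusted p of 7.2e-06). Among the 12629 tested genes Spry1 ranked 25 from the lowest fold change. The remaining reads were counted over the whole gene, so the part of the gene they came from was not tested. In such bulk tissue, fewer cells that express a gene and less RNA per cell cannot be told apart. Gm42922, an annotated transcript on the opposite strand, overlaps the first exon of Spry1 and had 1 to 5 reads per sample.

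**Figure D1:**
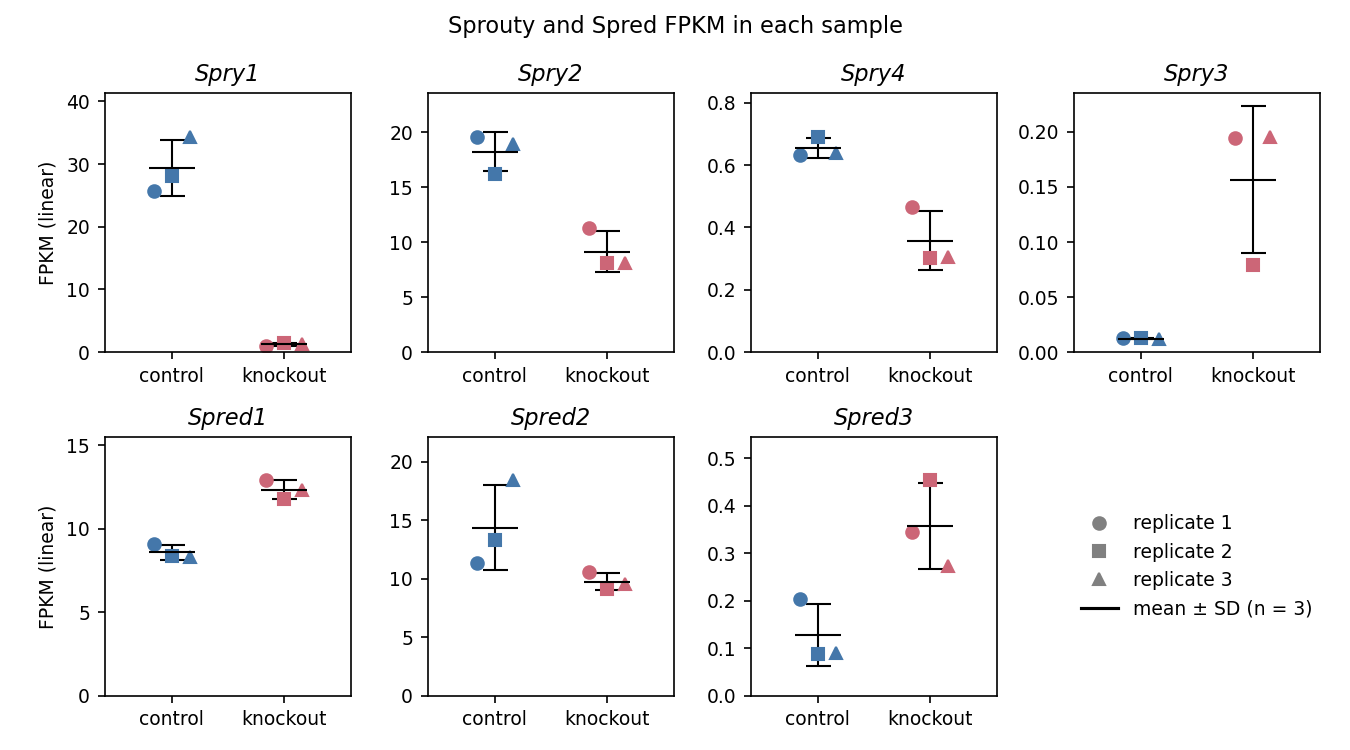
FPKM (linear axes that start at 0 and differ in scale) of the 7 Sprouty and Spred genes in each sample, by genotype. Points are samples, with 1 symbol per replicate number, and bars are mean ± SD (n = 3 each). In every panel the genotypes do not overlap: Spry1, Spry2, Spry4 and Spred2 were lower in the knockouts, and Spred1, Spred3 and Spry3 were higher.

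Spry2, the Sprouty gene with the next highest level, fell to about 50.2% of its control mean. The gene lies at chr14:105891947-105896819 on the minus strand. It read 19.6, 16.2 and 18.9 FPKM in control replicates 1, 2 and 3, and 11.3, 8.06 and 8.10 FPKM in knockout replicates 1, 2 and 3. Knockout replicate 1 was the highest of its group and still below the lowest control. The log2 fold change was -0.93 ± 0.14 (SE; 95% interval -1.27 to -0.59; limma adjusted p of 0.00175). No alternative setting that was run ended this call, and fold changes ranged from -1.25 under TPM scaling to -0.83 without control replicate 3 and knockout replicate 2. Over all tested genes, 9.30% had a lower fold change than Spry2.

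Spred1 was the tested member that rose. Spred1 recruits neurofibromin to Ras, and its gene spans chr2:117121374-117182279 on the plus strand. It read 9.10, 8.33 and 8.28 FPKM in control replicates 1, 2 and 3, and 12.9, 11.8 and 12.3 FPKM in knockout replicates 1, 2 and 3. The spread within each genotype was small, with a coefficient of variation of 5.33% in controls and 4.52% in knockouts, and the lowest knockout lay above the highest control. The log2 fold change was 0.48 ± 0.08 (SE; 95% interval 0.29 to 0.66; limma adjusted p of 0.00229). TPM scaling, in which every sample sums to the same total, ended the call, with a log2 fold change of 0.24 and a limma adjusted p of 0.127. That scaling moved the median of all tested genes by -0.25. Relative to the median of all genes, Spred1 stood at 0.45 as deposited and at 0.46 under TPM scaling. In limma-voom on the recovered reads Spred1 had 0.39 ± 0.10 (SE, adjusted p of 0.0121), or 0.57 relative to the median of that fit.

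Spred2, the close relative of Spred1, went the other way. Its gene spans chr11:19924375-20024026 on the plus strand. It read 11.4, 13.3 and 18.4 FPKM in control replicates 1, 2 and 3, and 10.6, 9.11 and 9.58 FPKM in knockout replicates 1, 2 and 3. The groups did not overlap, but control replicate 1 and knockout replicate 1 lay close together, and the controls spread over 1.62-fold. The log2 fold change was -0.49 ± 0.17 (SE; 95% interval -0.89 to -0.09), just past the threshold (limma adjusted p of 0.0426). The size rested in part on control replicate 3: without it the fold change was -0.31, with a limma adjusted p of 0.0403. Leaving out control replicate 2 or any 1 knockout sample ended the call (limma adjusted p of 0.0697 to 0.117), as did no filter (0.0857), the replicate number as a block (0.0681) and leaving out control replicate 3 and knockout replicate 2 together (-0.27, 0.0995).

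All 4 tested members passed, 3 of them lower and 1 higher, where 54% of all tested genes passed. Of all tested genes 24.4% were lower and 29.6% higher. The deleted gene is 1 of the 3 that were lower. The median log2 fold change of all tested genes was 0.03. This background depends on scaling: under TPM scaling 2055 genes were higher and 4470 lower (median -0.22). In limma-voom on the recovered reads 3614 were higher and 5352 lower (median -0.18). The groups did not overlap for any of the 4, where 64.2% of the tested genes had groups that did not overlap.

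Cell types other than keratinocytes also differed between the genotypes, and their part in the changes of Spry2, Spred1 and Spred2 was not tested. All 5 melanocyte markers (Mlana, Tyrp1, Pmel, Dct and Tyr) were higher in the knockouts, and their sum went from 7.93 to 11.0 FPKM in controls to 207 to 211 FPKM in knockouts. Mlana and Tyr averaged 0.64 and 0.13 FPKM in controls, so both met the filter only through the knockouts. Of 5 T cell markers 4 were lower (sums of 85.9 to 111 and 23.0 to 46.6 FPKM), and of 5 Langerhans cell markers 3 were lower (946 to 1551 and 368 to 546 FPKM). Among 5 macrophage markers 2 were higher and 2 lower (31.8 to 47.5 and 52.9 to 96.5 FPKM). All 4 tested muscle markers (11.5 to 48.0 and 0.99 to 2.04 FPKM for the list of 5) and 3 of 4 tested fibroblast markers (6.41 to 14.7 and 1.71 to 5.36 FPKM for the list of 6) were lower. Each tested marker of these 2 lists averaged under 1 FPKM in the knockouts and met the filter only through the controls. None of the 5 endothelial markers reached 1 FPKM on average, and they summed to 0.58 to 3.41 FPKM in controls and 0.57 to 1.18 FPKM in knockouts. None of 4 tested hair follicle stem cell markers passed (30.5 to 62.7 and 47.4 to 73.1 FPKM for the list of 5). No marker of these lists was listed at 0 in all 6 samples.

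The members under the filter rested on few reads. Spry4, which like Spry1 and Spry2 inhibits Ras-ERK signalling, lies on chromosome 18 and read 0.634, 0.691 and 0.638 FPKM in control replicates 1, 2 and 3, from 55, 60 and 59 reads. In knockout replicates 1, 2 and 3 it read 0.466, 0.302 and 0.305 FPKM, from 45, 25 and 24 reads. The controls were alike, and knockout replicate 1 lay between them and the other knockout samples. With library sizes taken into account, the summed reads of the knockouts were 0.513 times those of the controls (exact 95% interval 0.395 to 0.663, counting error only).

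Spred3, the Spred member that lacks a functional Kit-binding domain, was higher in the knockouts. It lies at chr7:29158829-29170411 on the minus strand and read 0.203, 0.088 and 0.091 FPKM in control replicates 1, 2 and 3, from 23, 10 and 11 reads. In knockout replicates 1, 2 and 3 it read 0.344, 0.454 and 0.274 FPKM, from 43, 49 and 28 reads. Control replicate 1 lay close to knockout replicate 3, and the groups did not overlap. The knockout reads were 2.59 times those of the controls (exact 95% interval 1.82 to 3.75, counting error only). The first exon of Spred3 overlaps the start of Ggn on the opposite strand (chr7:29170210-29173976), and whether the libraries kept strand is not stated, so reads from the overlap cannot be told apart. Ggn had 12, 18 and 12 reads in the controls and 25, 33 and 30 in the knockouts, and its part in the Spred3 value was not tested.

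Spry3 was at the edge of detection. It lies on the scaffold GL456233.1 of GRCm38, from 101352 to 106395 on the minus strand. Spry3 had 1 read in each control sample, or 0.0126, 0.0126 and 0.0118 FPKM. It had 17, 6 and 14 reads in knockout replicates 1, 2 and 3, or 0.195, 0.0795 and 0.196 FPKM. Knockout replicate 2, the sample with the most Eif2s3y reads, was the lowest of its group. The ratio of knockout to control reads was 11.7, with an exact 95% interval of 3.71 to 59.4 that covers counting error only and shows how little the control reads fix it.

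None of these 3 could pass an exact two-sided permutation test over the samples, whose smallest p is 0.1 with 3 against 3, and each gave 0.1. Genes under the filter with a value above 0 had groups that did not overlap in 24.4% of 15711 cases (9.15% higher and 15.2% lower in the knockouts). In limma-voom on the recovered reads, where 44.2% of 20299 genes passed, Spry4 had a log2 fold change of -0.999 ± 0.29 (SE, adjusted p of 0.0222). By the same limma-voom fit Spred3 had 1.41 ± 0.42 (adjusted p of 0.0237) and Spry3 2.91 ± 0.74 (adjusted p of 0.0118). On log2(FPKM + 1) with no filter, where 7709 of 28340 genes passed, the differences were -0.29, 0.27 and 0.19. Limma gave these adjusted p values of 0.0523, 0.0395 and 0.0281. The pseudocount of 1 exceeds these levels, so that scale understates their change.

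**Figure D2:**
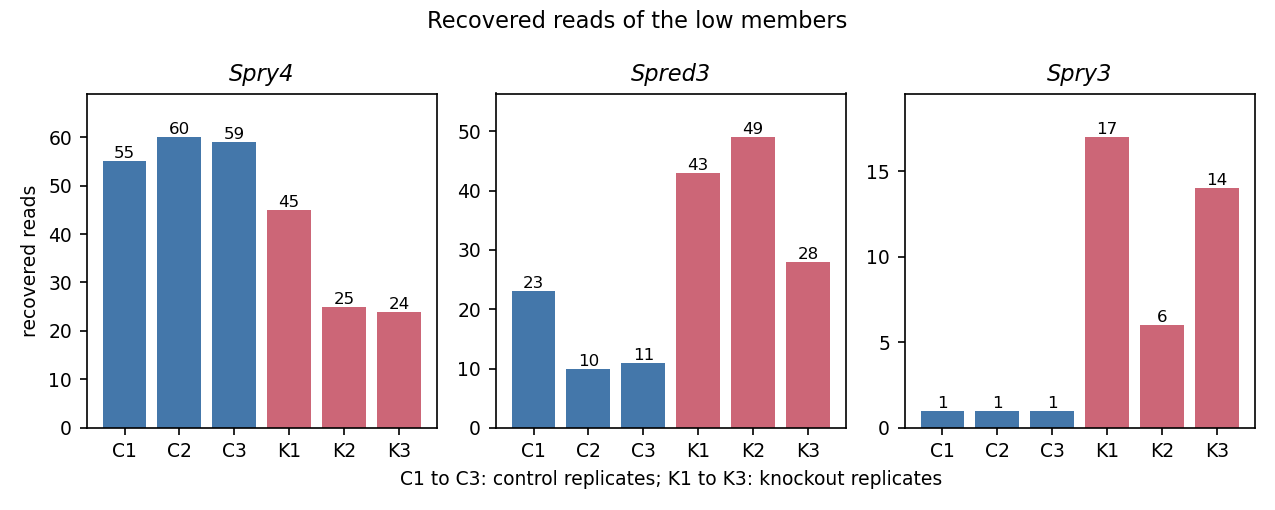
Reads recovered from the FPKM values for Spry4, Spred3 and Spry3, with 1 bar per sample (linear axes from 0 that differ in scale; controls in blue, knockouts in red). Spry4 had 55 to 60 reads in controls and 24 to 45 in knockouts, Spred3 10 to 23 and 28 to 49, and Spry3 1 and 6 to 17.

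FPKM is a level per length, so levels can be ordered between members. In the controls the order was Spry1 (29.4 ± 4.45 FPKM), Spry2 (18.2 ± 1.77), Spred2 (14.4 ± 3.65), Spred1 (8.57 ± 0.46), Spry4 (0.654 ± 0.03), Spred3 (0.127 ± 0.07) and Spry3 (0.0123; SD, n = 3 each). The ranges of Spry2 and Spred2 overlapped, although Spry2 was the higher in 3 of 3 controls, and all other neighbours had ranges apart. Spry1 lay above 86.9% of the tested genes in the controls, Spry2 above 78.2%, Spred2 above 72.4% and Spred1 above 57.5%.

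In the knockouts the order was Spred1 (12.3 ± 0.56 FPKM), Spred2 (9.76 ± 0.76), Spry2 (9.15 ± 1.85), Spry1 (1.27 ± 0.21), Spry4 (0.358 ± 0.09), Spred3 (0.357 ± 0.09) and Spry3 (0.157 ± 0.07; SD, n = 3 each). Spred2 and Spry2 had overlapping ranges, as had Spry4 and Spred3. Spred1 thus moved from the fourth to the first place, while Spry1 at its remaining level still stood above Spry4 in 3 of 3 knockouts.

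Summed over the 7 genes, the family read 66.7, 66.8 and 80.7 FPKM in control replicates 1, 2 and 3, and 36.8, 31.3 and 32.0 FPKM in knockout replicates 1, 2 and 3. Without Spry1 the remaining 6 genes summed to 42.0 ± 3.95 FPKM in controls and 32.1 ± 3.21 FPKM in knockouts (SD, n = 3 each). The lowest control sum was 38.7 and the highest knockout sum 35.8 FPKM, so the other members together were not at a higher level where Spry1 was lost. The Sprouty genes fell from 48.3 ± 4.86 to 10.9 ± 1.79 FPKM in sum. The Spred genes summed to 23.1 ± 3.28 and 22.4 ± 1.27 FPKM, with overlapping ranges (20.7 to 26.8 and 21.4 to 23.8). Spry1 made up 41.1 ± 2.17% of the family sum in controls and 3.87 ± 0.94% in knockouts. The share of the Spred genes went from 32.3 ± 1.12% to 67.4 ± 2.36%. The sums are described only, on the deposited scale, and were not tested. All genes summed to 341508 to 385073 FPKM in controls and 413426 to 482950 FPKM in knockouts. Scaling to a common total would thus lower the knockout sums relative to the controls, while the shares would stay the same.

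**Figure D3:**
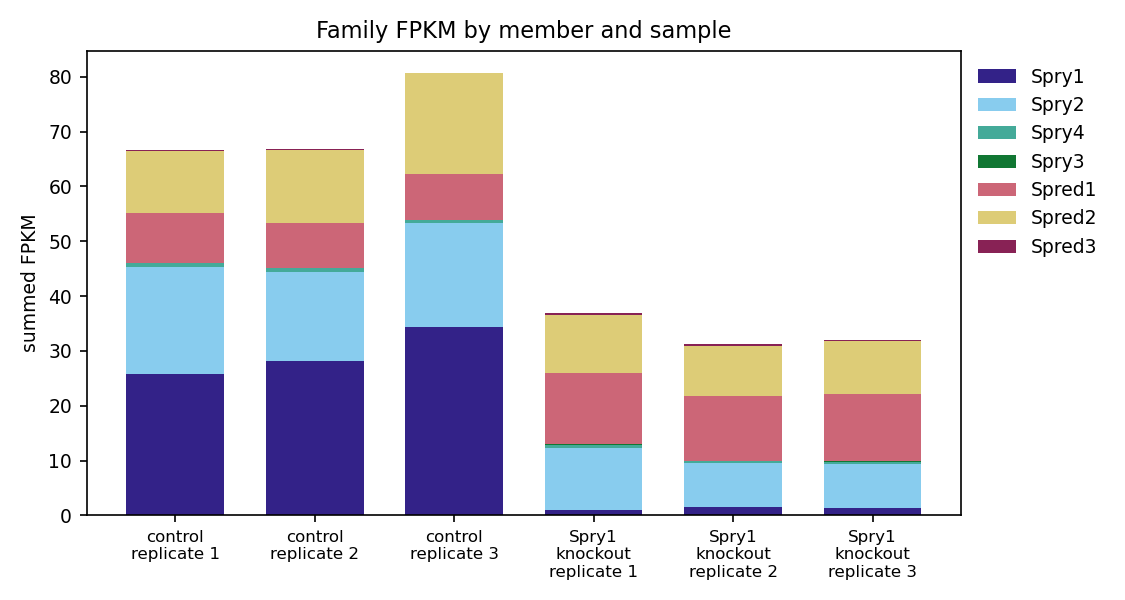
FPKM of the 7 Sprouty and Spred genes stacked for each of the 6 samples (linear axis from 0). The controls sum to 66.7 to 80.7 FPKM and the knockouts to 31.3 to 36.8 FPKM. On this deposited scale the Spred part is of like height in both genotypes.

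The profiles of the tested members over the 6 samples followed the genotype, as did those of many other genes. By Pearson's r of log2(FPKM + 1), the genes most like Spry1 were Tns1, Adh6a and Flrt2 (r of 0.9996, 0.9996 and 0.9994). Those most like Spry2 were Zc3h7b, Lats2 and Zfp526 (0.997 each), and those most like Spred1 were Lgmn, Slc38a4 and Ebp (0.999, 0.999 and 0.998). Those most like Spred2 were Car11, Ikbke and Ptprs (0.997, 0.994 and 0.991). These values describe 6 samples that share a genotype split: 1342 tested genes had an r over 0.95 with Spry1, 452 with Spry2, 1137 with Spred1 and 116 with Spred2.

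The other genes of the pathway were taken from lists of receptors, cascade proteins, partners, further inhibitors and transcription targets. Of 63 tested genes on these lists 17 were higher and 14 lower, to be read against the 54% of all genes that passed. Under TPM scaling the same lists had 11 higher and 23 lower, and the share of higher genes among all genes past the threshold went from 54.8% to 31.5%.

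More receptors were lower than higher. Of 11 tested, 2 were higher and 6 lower (median log2 fold change -0.39, against 0.03 for all tested genes). Thus 72.7% passed, where 54% of all tested genes did (29.6% higher and 24.4% lower). Fgfr2, the epidermal receptor for FGF7 and FGF10, read 35.8 ± 0.71 FPKM in controls and 9.28 ± 0.63 FPKM in knockouts (SD, n = 3 each), with a log2 fold change of -1.84 ± 0.08 (SE). Fgfr3 fell by 0.77 on the log2 scale. Fgfr1 rose by 0.98 and Kit, the receptor for stem cell factor on melanocytes, by 1.52, beside the rise of the melanocyte markers. The limma adjusted p of these 4 ranged up to 0.0014. Kit averaged 0.49 FPKM in controls and 3.27 FPKM in knockouts, so it met the filter only through the knockouts.

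Of 18 adaptor and cascade genes, 5 were higher and 2 lower, and 11 did not pass (median 0.01). The share that passed was 38.9%, against 54% of all tested genes. Map2k1, which encodes the ERK kinase MEK1, rose from 15.2 ± 2.002 to 30.7 ± 2.35 FPKM, and Shc1, a receptor adaptor, from 12.8 ± 0.34 to 20.0 ± 1.69 FPKM. Gab1, a docking protein, fell by 0.69 on the log2 scale and Araf, a Raf kinase, by 0.72. Under TPM scaling the counts were 2 higher and 8 lower, under median-ratio scaling 4 and 5, and with array weights 6 and 4.

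Of 13 partners and regulators of Sprouty and Spred proteins, 1 was higher and 3 lower (median -0.01). This is 30.8% past the threshold, against 54% of all tested genes. Siah1a, from a family of ubiquitin ligases that target Sprouty2, fell by 0.80 on the log2 scale. Siah2 of the same family, named after its values were seen, did not pass and had a positive fold change (0.48, limma adjusted p of 0.115). Cav1, the caveolin that binds Sprouty proteins, fell by 0.50 and Tesk1, a kinase that binds Sprouty, by 0.43. Rhoa rose by 0.28, a call lost without control replicate 1 (limma adjusted p of 0.0557), with the replicate block (0.0605), in limma-voom (0.147) and with TPM scaling (0.961). Nf1, the effector of Spred proteins, was at 1.25 ± 0.06 FPKM in controls and 1.23 ± 0.04 FPKM in knockouts, a log2 fold change of -0.01 ± 0.11 (SE; limma adjusted p of 0.923).

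Other inhibitors of the pathway, not all of them feedback genes, moved both ways, as did the Sprouty and Spred genes. Il17rd, also on this list, lay under the filter and was not tested (means of 1.06 FPKM in controls and 0.51 FPKM in knockouts). Of 11 tested, 5 were higher and 3 lower (median 0.20, or -0.05 under TPM scaling with 4 higher and 3 lower). As deposited 72.7% passed, against 54% of all tested genes. Dusp9 and Dusp7, phosphatases of MAP kinases, rose by 1.34 and 0.97 on the log2 scale. Dusp9 averaged 0.27 FPKM in controls and 2.23 FPKM in knockouts, so it met the filter only through the knockouts. Without knockout replicate 2 the list had 10 tested, 4 higher and 3 lower. Lrig3 and Lrig1, of a family of transmembrane proteins that restrain growth factor receptors, fell by 1.12 and 0.91. The remaining genes past the threshold, named after their values were seen, were Dusp4 (0.90), Dusp6 (1.96), Pebp1 (0.53) and Lrig2 (-0.39). Of their calls, that of Pebp1 was lost under TPM scaling (0.26, limma adjusted p of 0.124), that of Lrig2 without control replicate 1 (0.0526) and that of Dusp4 without control replicate 3 and knockout replicate 2 together (0.0589).

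Of 10 tested ERK-induced transcription targets, 4 were higher, none was lower and 6 did not pass (median 0.70). The 40% that passed compare with 54% of all tested genes. With array weights or without control replicate 3 the list had 6 higher, and without knockout replicate 2 it had 3. Etv4, an ETS factor, rose from 1.85 ± 0.57 to 19.4 ± 4.29 FPKM and its relative Etv5 from 3.31 ± 0.67 to 10.1 ± 0.98 FPKM. Phlda1 rose by 2.33 on the log2 scale. Ier3 rose by 0.84, a call lost without knockout replicate 1 (limma adjusted p of 0.063) or 2 (0.0555), without control replicate 3 and knockout replicate 2 together (0.0556) and under TPM scaling (0.0681). The immediate early genes Fos, Egr1 and Ier2, named after their values were seen, did not pass and had negative fold changes. Fos, a subunit of AP-1, read 1101 ± 490.3 FPKM in controls and 359 ± 253 FPKM in knockouts (SD, n = 3 each). Its log2 fold change was -1.90 ± 0.69 (SE; limma adjusted p of 0.0533). Egr1 had -0.93 (limma adjusted p of 0.119) and Ier2 -0.51 (0.131). The other targets that did not pass were Fosl1, Myc and Ccnd1. Fosl1 had 2.09 (limma adjusted p of 0.093), Myc 0.56 (0.170) and Ccnd1 -0.04 (0.877), so the targets that did not pass went both ways. Fos passed as lower under TPM scaling (limma adjusted p of 0.0376), in limma-voom (0.0238) and without knockout replicate 1 (0.0302), and Ier2 without control replicate 1 (0.0482).

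**Figure D4:**
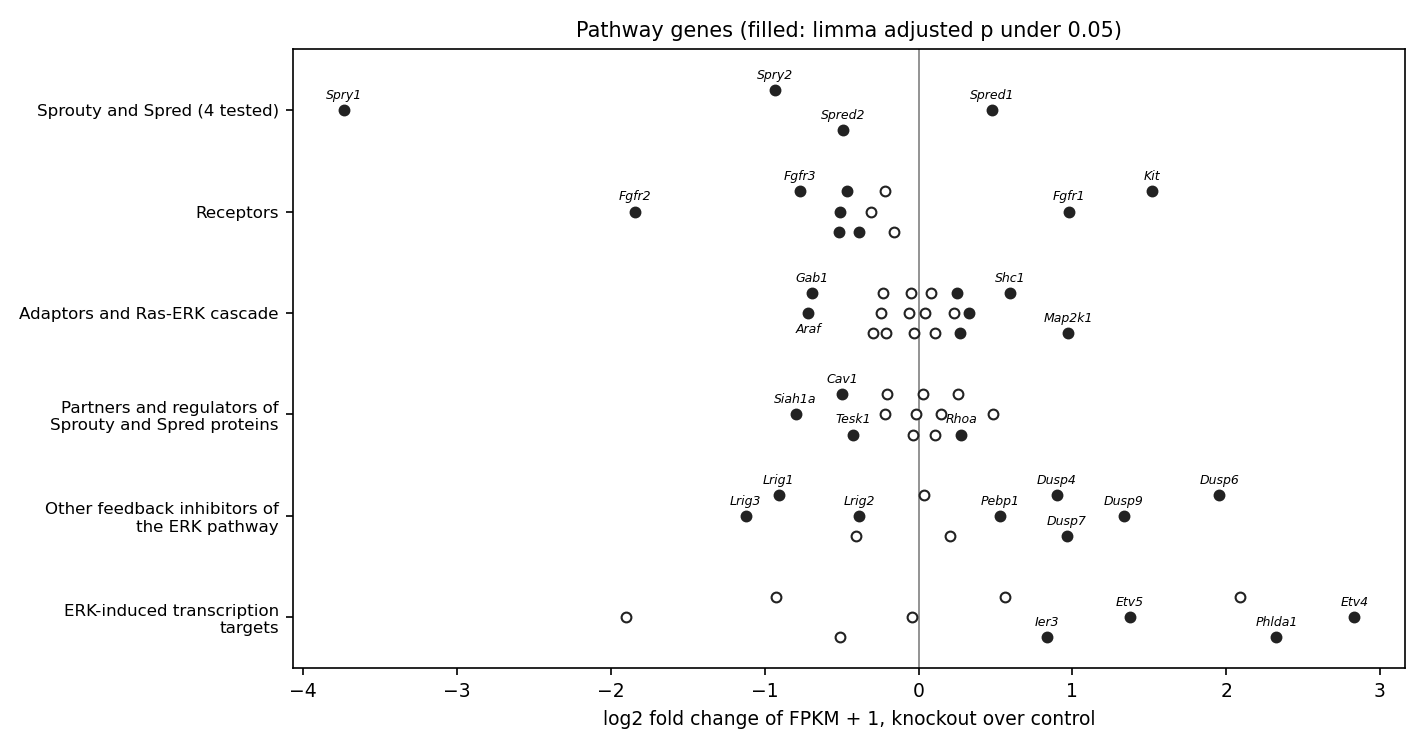
Log2 fold change of FPKM + 1 (knockout over control, x axis) for the 4 tested Sprouty and Spred genes and the tested genes of the pathway lists, 1 point per gene and 1 row per list. Filled points passed a limma adjusted p of 0.05: 3 of the 4 family members are lower and 1 higher, while 4 of 10 ERK-induced targets passed and all 4 are higher (3 higher and 1, Fos, lower under TPM scaling). Of all tested genes 54% passed.

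Across the settings that were run, none of the 7 members changed direction. Spry1 ranged from -4.66 to -3.62 and Spred1 from 0.24 to 0.52 on the log2 scale of each setting. Spred2 ranged from -0.78 to -0.27.

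**Figure D5:**
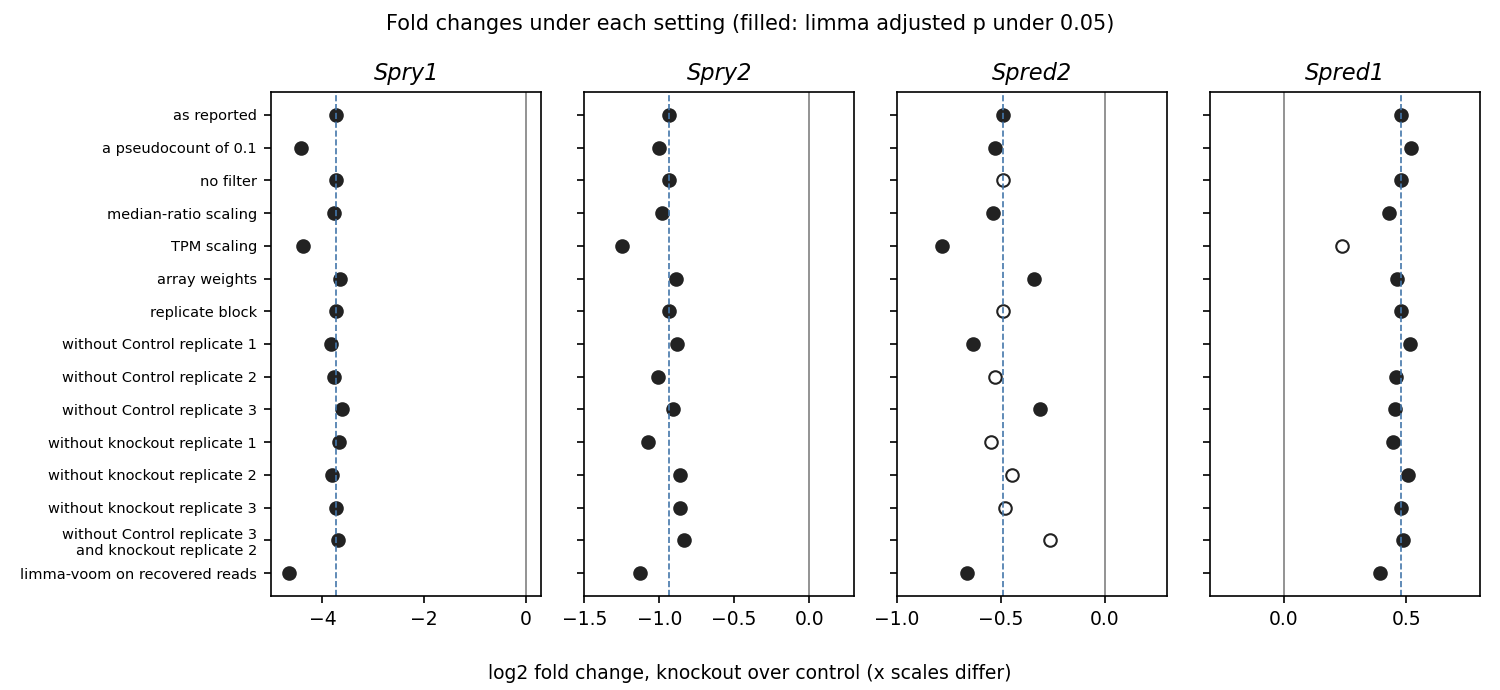
Log2 fold change (knockout over control, x axes that differ in scale) of the 4 tested members under each setting, 1 row per setting. Filled points have a limma adjusted p under 0.05 and the dashed line is the reported value: Spry1 and Spry2 are filled in every row, Spred1 is open under TPM scaling, and Spred2 is open in 7 rows.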

How the data were processed

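Per the labels, RNA from back epidermis of 3 control and 3 knockout samples was extracted with Trizol and 0.4 ug entered each library. The authors deposited FPKM, 1 column per sample. HISAT2 2.0.5, featureCounts 1.5.0-p3 and GRCm38 are named per the submitters' processing notes. Annotation release, strandedness, filters and the formula for FPKM are not stated there.

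Groups and replicate numbers came from the sample titles. Gene positions and exon lengths came from GENCODE M21 (GRCm38), which matched 54495 of 54532 gene IDs. FPKM multiplied by exon length gave whole reads for 97.0% to 97.3% of values above 0 (tolerance 0.1 reads, where chance gives 20%). The totals the authors scaled by were 98.8% to 102.9% of the recovered reads in controls and 88.1% to 95.6% in knockouts, which shifts all genes of a sample together. The smaller totals of the knockouts raise their FPKM relative to the controls. Counting intervals cover counting error only.

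Genes averaging 1 FPKM or more over the 6 samples were tested on log2(FPKM + 1) with limma 3.58.1 in R 4.3.3. The variance trend was on, the model held genotype alone, and p-values were two-sided. Benjamini-Hochberg adjustment ran over all tested genes, with a threshold of 0.05. Fold changes are on that scale and understate the change of low genes. Members under the filter had an exact permutation test. Limma-voom used recovered reads of genes with at least 10 reads in all. The script was tested on simulated data.

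Named genes are the members, up to 4 genes per pathway list with the lowest p among those past the threshold, the 3 genes most like each tested member, and the marker genes, of which 1 list is not reported here. The members and lists were chosen with earlier results of these data known. Settings also tried were limma-voom, median-ratio and TPM scaling, no filter, a pseudocount of 0.1, array weights, each sample left out in turn and a replicate block. Leaving out control replicate 3 and knockout replicate 2 together was added after seeing the data.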

Additional observations from a re-analysis of the deposited data

How the results depend on the processing

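None of the 7 members changed direction under any alternative that gave a value for it. Nf1, which lay near 0, ranged from -0.23 to 0.02 and turned sign in 3 of 14 alternatives. Spred1 lost its call under TPM scaling (0.24). Spred2 lost its call with no filter (-0.49), with the replicate block (-0.49) and without control replicate 3 and knockout replicate 2 together (-0.27), and ranged from -0.64 to -0.31 when 1 sample was left out, with the call lost in 4 of the 6 cases. With no filter 7709 of 28340 genes passed limma, and 8966 of 20299 passed limma-voom. Among the members under the filter, which could not pass the exact test, Spry3 (0.19) and Spred3 (0.27) passed limma with no filter. Spry3 (2.91), Spry4 (-0.999) and Spred3 (1.41) passed limma-voom. The causes were not tested. When 1 sample was left out, Spry1 ranged from -3.82 to -3.62, Spry2 from -1.08 to -0.86 and Spred1 from 0.45 to 0.52, all past the threshold. Same-numbered samples of the 2 genotypes deviated from their genotype means with correlations of -0.10, -0.11 and -0.12. Samples with unlike numbers had correlations of -0.04 to 0.15. Removing a mean of 3 samples ties these correlations together, so they cannot tell whether the numbers pair the samples. The replicate block left 5834 of 12629 genes past the threshold, against 6815, and changed no call of a member other than Spred2. Array weights and the block gave no value for the members under the filter, and only leaving out samples applied to the Spry1 share, which stayed within 1 SD. Depth limits Spry3 most, with 1 read per control sample.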
